A study of Mus musculus with 9 samples.

Results

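The genes described here encode the nuclear subunits of the respiratory chain and the ATP synthase, followed in CD11b+ bone marrow cells of mice. They were chosen by symbol, as genes named for subunits of complexes I to V with at least 10 counts summed over the 9 libraries. Of 23337 genes in the counts, 85 matched by symbol and 81 reached the minimum: 35 of complex I, 4 of complex II, 8 of complex III, 17 of complex IV and 17 of complex V. The other 4, Ndufa4l2, Ndufs5, Cox7b2 and Cox8c, had 0 counts in every library. A symbol is not proof of a subunit: Cox4nb encodes a protein of an endoplasmic reticulum membrane complex, Atp5s and Atp5sl encode proteins now named as distal membrane arm assembly components, Cox7a2l encodes a supercomplex factor, and the product of Ndufa4 is found with complex IV.

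Male C57BL/6 mice, 3 to 6 weeks old in the study's methods, received tail vein injections of 100 µl on days 1, 3 and 5, and each of the 3 groups held 3 mice. The PBS group received the vehicle, and marrow was taken the day after the last injection. The EnzR EVs group received 10 µg of protein of extracellular vesicles (exosomes in the labels) from enzalutamide-resistant CWR-R1 cells, a human prostate cancer line. The EnzR EVs + HDL NPs group received the same vesicles and, on days 0, 2 and 4, nanoparticles that mimic high-density lipoprotein, at 1 µM in the labels and at another dose in the study's methods. No group received HDL NPs alone, and none received vesicles of other cells. The CD11b+ cells were taken by positive selection, so each library is a mixture of granulocytes, monocytes and other cells that carry CD11b. In such bulk RNA, fewer cells of a type and less RNA per cell cannot be told apart.

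The respiratory chain sits in the inner mitochondrial membrane. Complexes I and II take electrons from NADH and succinate, ubiquinone and cytochrome c carry them through complex III to complex IV, which reduces oxygen, and the proton gradient made on the way drives ATP synthesis by complex V. Complexes I, III, IV and V also hold subunits encoded in mitochondrial DNA, which were not analysed here. Mature neutrophils, the most abundant CD11b+ cells of marrow, are known to depend mainly on glycolysis, whereas their precursors and monocytes use mitochondrial respiration more.

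Total counts ranged from 2575776 to 18110561, and the precursor of ribosomal RNA, Rn45s, took from 0.657% to 42.7% of them. Rn45s was over 10% in 3 libraries, PBS replicate 1 (20.3%), EnzR EVs replicate 1 (42.7%) and EnzR EVs replicate 3 (14.2%), and it was 2.87% in EnzR EVs + HDL NPs replicate 3. These 4 libraries stand apart from the others in the values below, so the fitted counts and medians are also given without the 3 libraries over 10%, which leaves 1 mouse in the EnzR EVs group, assumed in the fit to vary like the other groups. Itgam, which encodes CD11b, lay between 1389 and 2006 CPM in the 9 libraries and Csf3r, the receptor for granulocyte colony-stimulating factor, between 371 and 982 CPM, whereas the B cell gene Cd79a lay between 1.49 and 3.84 CPM and the T cell gene Cd3e had at most 3 counts. The 81 genes took between 0.303% and 0.468% of all counts.

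Several subunit mRNAs have near-identical copies elsewhere in the genome, from which short reads cannot always be told apart. Windows of 75 bases, the read length, were compared between the principal transcript of each gene and all other genes of GENCODE M21. Of the 81 genes, 54 had no shared window, 27 had at least one, and 8 shared over 25% of their windows. The coding windows below were shown because they are the ones shared with most other genes in 4 subunit genes whose counts were low or 0. All are from GENCODE M21 on GRCm38 (the assembly also named mm10), on the minus strand, 5′ to 3′, with capitals on the start codon where the window holds it, and the coordinates span any intron. They are at chr4:123716005-123716079 for Ndufs5, chr9:44913395-44914653 for Atp5l, chr13:86045840-86046645 for Cox7c and chr15:102665820-102667749 for Atp5g2.
Ndufs5: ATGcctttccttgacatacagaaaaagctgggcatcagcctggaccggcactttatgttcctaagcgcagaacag
Atp5l: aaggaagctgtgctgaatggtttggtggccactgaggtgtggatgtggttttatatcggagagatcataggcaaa
Cox7c: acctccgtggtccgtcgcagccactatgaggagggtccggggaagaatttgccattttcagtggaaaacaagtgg
Atp5g2: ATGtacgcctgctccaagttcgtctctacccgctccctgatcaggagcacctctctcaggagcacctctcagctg

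The window of Ndufs5, an accessory subunit of complex I, is also in 1 other gene, the processed copy BC002163. Ndufs5 had 0 counts in all 9 libraries, while BC002163 had 24, 91 and 89 counts in PBS mice, 3, 138 and 33 in EnzR EVs mice and 120, 114 and 67 in EnzR EVs + HDL NPs mice. Ndufs5 shared 32.4% of its windows, fewer than Ndufb4 and Atp5h, which had counts, and the cause of its 0 was not tested. Atp5l, which encodes subunit g of the ATP synthase, shared 63.4% of its windows with 9 pseudogenes, 8 of which hold the window above, and had 201 counts over the 9 libraries. Cox7c, a small subunit of complex IV, shared 50.4% and had 213 counts. Atp5g2, 1 of 3 genes for the same mature c subunit of the rotor, shared 100% of its windows with 2 pseudogenes and had 32 counts. Atp5g1 (59.6%), Atp5h (40.3%), Ndufb4 (35.2%), Uqcrb (29.1%) and Ndufs3 (27.1%) followed. Levels of these genes relative to others are uncertain. A comparison of 1 gene between groups keeps the same windows on both sides.

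**Figure D1:**
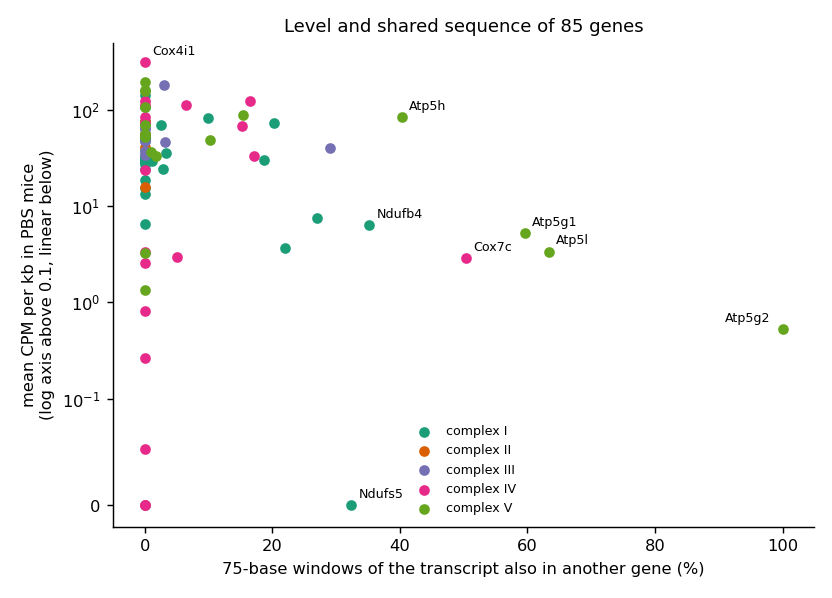
Each point is 1 of 85 genes, coloured by complex. The x axis gives the percent of 75-base windows of its transcript that another gene also holds, and the y axis the mean CPM per kb in the 3 PBS mice, on a log axis above 0.1 and a linear axis below. Atp5g2 (100%), Atp5l (63.4%), Atp5g1 (59.6%) and Cox7c (50.4%) lie low, and Atp5h, at 40.3%, does not.

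Per kilobase of transcript, mean levels in PBS mice spanned from 0.0526 CPM per kb for Cox4i2 to 315 CPM per kb for Cox4i1, with a median of 40.6 CPM per kb. By this measure Cox4i1, the common isoform of subunit 4 of complex IV, was followed by Atp5b (194), which encodes the catalytic beta subunit of the ATP synthase, Uqcrh (182), the hinge protein of complex III, and Atp5a1 (161), the alpha subunit. Median levels were 32.4 CPM per kb in complex I, 48.9 in complex II, 47.1 in complex III, 32.8 in complex IV and 52.8 in complex V. Lowest, after Cox4i2, were Cox8b (0.265), Atp5g2 (0.523), Cox6a2 (0.820) and Atp5s (1.33). Cox4i2, Cox8b, Atp5g2 and Cox6a2 were also the only members left out of the tests by the filter on low counts, so 77 of 81 were tested.

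Paralogous subunits were used in nearly the same proportions in all 9 libraries, with 1 exception. Cox4i1 took 99.2% to 100% of the counts of its pair with Cox4i2, the isoform of lung and low oxygen. Cox6a1 took 98.6% to 99.9% against the muscle isoform Cox6a2, Cox6b1 96.4% to 98.5% against the testis isoform Cox6b2, and Cox8a 99.2% to 100% against Cox8b, with Cox8c at 0. Ndufa4 and Cox7b took all counts of their pairs. Atp5g3 took 92.8% to 95.8% of the counts of the c subunit genes. The exception was Cox7a2, which took from 6.14% to 56.8% of the counts it shares with Cox7a2l and the muscle isoform Cox7a1. Its share was lowest in EnzR EVs replicate 1, where Cox7a2 had 5.49 CPM against 78.5 CPM in replicate 2 of the same group. Cox7a2l varied from 49.5 to 86.6 CPM over the same libraries.

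The comparison of EnzR EVs with PBS sets vesicles of drug-resistant prostate cancer cells against the vehicle in marrow myeloid cells. Effects particular to these vesicles cannot be told apart from those of any injected vesicles. For the respiratory chain, 0 of 77 genes passed an adjusted p of 0.05 by the quasi-likelihood test of edgeR, against 0% of the 12553 genes tested, and DESeq2 and limma voom also called 0 of them. None reached an unadjusted p under 0.05 by edgeR in either direction, where 1.92% of all genes were lower and 1.55% higher. Of the 77 genes, 41 were higher and 36 lower, and their median log2 fold change was 0.015 beside -0.0272 for all genes. Scaling by library size alone put 22 higher and 55 lower, with a median of -0.14 beside -0.18 for all genes. With PBS replicate 2 or 3, or EnzR EVs replicate 2 or 3, left out, 43 genes were lower in each fit. The medians of those fits ran from -0.06 to -0.02. In 3 genes the EnzR EVs mice all lay above the PBS mice and in 0 all below, where 3.43% of all genes lay above and 4.52% below.

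The smallest p of this comparison belonged to Cox5b, a peripheral subunit of complex IV on chr1:36691487-36693388. Cox5b had 25.7, 30.1 and 29.3 CPM in PBS mice and 46.6, 34.9 and 33.3 CPM in EnzR EVs mice, so the groups did not overlap. Its log2 fold change was 0.41 ± 0.19 (SE), with an unadjusted p of 0.0553 and an adjusted p of 0.928 by edgeR, and the exact permutation test over mice gave 0.10, the smallest value it allows for 3 against 3. Cox6b1, of complex IV, and Sdhb, the iron-sulfur subunit of complex II, were the other 2 genes without overlap. Cox6b1 had 75.8 ± 0.971 CPM in PBS mice and 91.2 ± 5.53 in EnzR EVs mice, and Sdhb 64.4 ± 0.696 and 74.2 ± 10.9 (SD, 3 mice each). The 5 highest log2 fold changes were those of Ndufb11 (0.84), Ndufb7 (0.53), Ndufa3 (0.47), Ndufa5 (0.44) and Cox5b, and the 5 lowest those of Cox7a1 (-0.65), Atp5s (-0.53), Ndufb4 (-0.49), Ndufb2 (-0.40) and Uqcr10 (-0.33). Except for Cox5b, the mice of both groups overlapped in each of these genes. Without the 3 libraries over 10% Rn45s, Ndufb11 stood at 0.14, Ndufb7 at 0.21, Ndufa3 at 0.11, Ndufa5 at 0.42 and Cox5b at 0.24. Of the 5 lowest, Ndufb4 stood at -0.11 there and the other 4 turned positive, at 0.17 for Cox7a1, 0.13 for Atp5s, 0.0949 for Ndufb2 and 0.17 for Uqcr10.

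These values rest on libraries that differ. Without PBS replicate 1, 11 of 79 genes had an unadjusted p under 0.05 by edgeR, all higher, where 4.88% of all genes were higher and 3.44% lower. Without EnzR EVs replicate 2, 5 of 79 were higher and 6 lower, where 8.62% of all genes were higher and 8.02% lower. Without both PBS replicate 1 and EnzR EVs replicate 1, 10 of 78 were higher and 1 lower (4.18% and 4.37% of all genes), and the median was 0.140. Without the 3 libraries over 10% Rn45s, 68 of 78 genes were higher, and the median was 0.178 beside -0.0042 for all genes. The EnzR EVs group of that fit is replicate 2 alone. Its sum over the 81 genes, 4515 CPM, was the highest of its group. Weighting each library by its estimated quality was an alternative chosen after the data were seen. It gave 14 calls among the 77 genes, 13 higher and 1 lower, out of 1990 calls among the 12553 genes tested. The higher were Cox4i1, Cox5a, Cox6a1, Ndufa3, Ndufa5, Ndufb5, Ndufb7, Ndufb11, Ndufc2, Ndufs1, Ndufv1, Sdhc and Uqcrq. The lower was Atp5s, at -1.35, and Cox5b, at 0.20, was not called. At an unadjusted p under 0.05 by limma voom with these weights, 25 of the 77 genes were higher and 8 lower. Of all genes 17.5% were higher and 18.6% lower at that p. The weights were 3.61 and 3.17 for PBS replicates 2 and 3 and 2.65 for EnzR EVs replicate 3, and between 0.315 and 1.29 for the other 6, so that the EnzR EVs group is mainly its replicate 3, a library with 14.2% Rn45s. Of cell type markers, the early granulocyte genes had sums of 1988, 1520 and 1771 CPM in PBS mice and 2175, 2020 and 2153 CPM in EnzR EVs mice. The sums did not overlap, but in 0 of the 5 genes did all EnzR EVs mice lie above all PBS mice. Of the 5 genes 4 were higher, 0 at an unadjusted p under 0.05 by edgeR. In the same comparison 7 of 7 B lineage genes and 7 of 8 marrow macrophage genes were lower, 2 and 4 of them at that p, as were 9 of 10 erythroid genes, 4 of them at that p. All 10 late granulocyte genes tested were lower, 0 of them at that p, and 6 of 7 monocyte genes, 1 of them at that p. The part of these cells in the values above was not tested.

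The comparison of EnzR EVs + HDL NPs with EnzR EVs asks what the nanoparticles change in mice that receive the vesicles. Again 0 of 77 genes passed the adjusted threshold by edgeR (0% of all genes), DESeq2 or limma voom. Here 16 genes were lower and 0 higher at an unadjusted p under 0.05, that is 20.8% of the 77 lower, where 6.97% of all genes were lower and 3.58% higher. In 24 genes all EnzR EVs + HDL NPs mice lay below all EnzR EVs mice and in 1, Cox6b2, above, where 8.58% of all genes lay below and 8.99% above. In all, 49 genes were lower and 28 higher, with a median log2 fold change of -0.11 beside 0.03 for all genes. Summed over the 81 genes, levels were 4279, 4515 and 4347 CPM in EnzR EVs mice and 3951, 3881 and 3148 CPM in EnzR EVs + HDL NPs mice, and PBS mice, at 4710, 3958 and 3902 CPM, overlapped with both.

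The 16 genes came from all 5 complexes. Complex I gave 9, among them Ndufa2, Ndufa3, Ndufa5, Ndufb5, Ndufb7, Ndufb11, Ndufs7 and Ndufv1. Complex II gave Sdhc, complex III Uqcrc1, complex IV Cox4i1, Cox5a and Cox6a1, and complex V Atp5a1 and Atp5h. In each of them the 2 groups did not overlap, their unadjusted p lay between 0.00917 and 0.0446, and all had an adjusted p of 0.461 by edgeR.

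**Figure D2:**
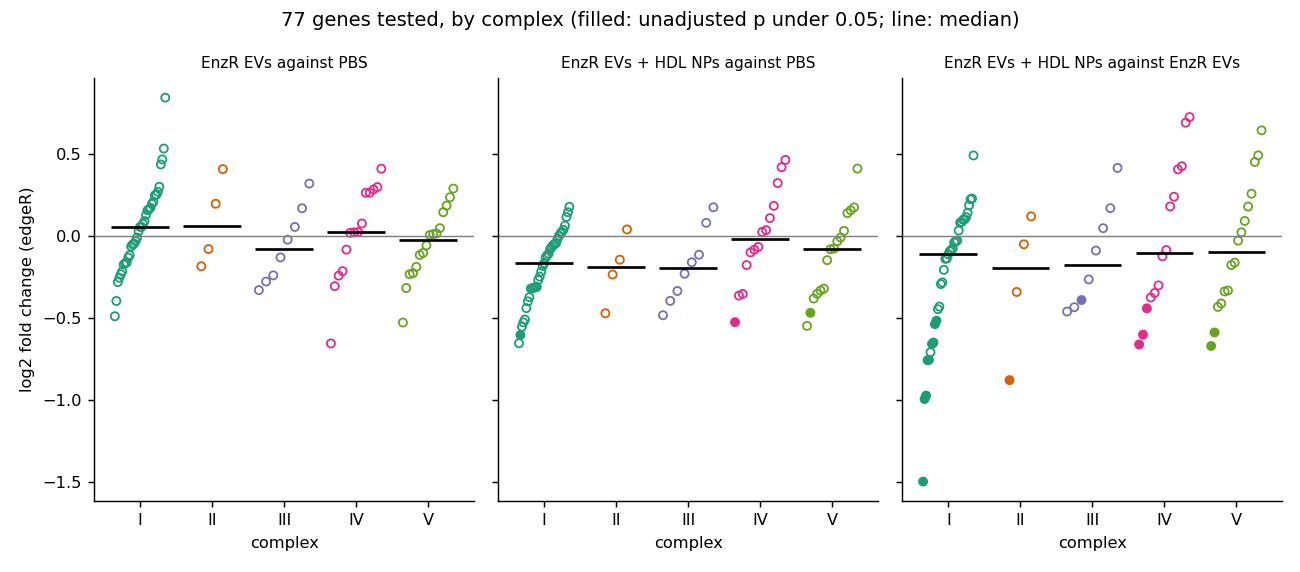
Log2 fold changes of the 77 tested genes by complex in the 3 comparisons. Each circle is 1 gene, filled at an unadjusted p under 0.05 by edgeR, and black lines are medians. Filled circles number 0 in EnzR EVs against PBS, 3 in EnzR EVs + HDL NPs against PBS and 16 in EnzR EVs + HDL NPs against EnzR EVs, all below 0.

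In complex I, Ndufa2, an accessory subunit of the matrix arm, had the smallest p. It had 45.0, 36.6 and 46.2 CPM in EnzR EVs mice and 27.0, 30.4 and 23.3 CPM in EnzR EVs + HDL NPs mice, with PBS mice at 52.1, 35.3 and 35.6 CPM. Its log2 fold change against EnzR EVs was -0.66 ± 0.21 (SE), with an unadjusted p of 0.00917 by edgeR. Every EnzR EVs + HDL NPs mouse lay below every mouse of the other 2 groups. Ndufb7, an accessory subunit of the membrane arm on chr8:83566758-83571623, had 193, 82.4 and 114 CPM in EnzR EVs mice and 56.6, 70.6 and 68.8 CPM with HDL NPs added, a log2 fold change of -0.97 ± 0.32. The EnzR EVs values of Ndufb7 ran from 82.4 to 193 CPM, a wider spread than the distance between the groups' nearest mice. Ndufb11, another membrane arm subunit, had the lowest log2 fold change, -1.49 ± 0.53, from 216, 45.7 and 85.1 CPM to 37.4, 44.6 and 38.3 CPM. Replicates 2 of the 2 groups differ by little there, 45.7 against 44.6 CPM, and the size of the change comes from replicates 1 and 3 of the EnzR EVs group.

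Of the core subunits of complex I, Ndufv1, which binds NADH and the flavin, had 72.4, 46.8 and 60.8 CPM in EnzR EVs mice and 36.6, 39.3 and 37.8 CPM in EnzR EVs + HDL NPs mice, with a log2 fold change of -0.65 ± 0.22. Ndufs7, which carries an iron-sulfur cluster, had 31.1 ± 10.6 CPM in EnzR EVs mice and 17.9 ± 2.52 CPM in EnzR EVs + HDL NPs mice (SD, 3 mice each). Ndufs1, the large iron-sulfur subunit, had 80.6 ± 9.57 and 69.9 ± 2.63 CPM, and its mice overlapped. Of other core subunits, the log2 fold changes were -0.14 ± 0.19 for Ndufv2, -0.14 ± 0.24 for Ndufs3 and 0.19 ± 0.33 for Ndufs8 (SE). The mice overlapped in each of these too. Ndufa3 (-0.99) and Ndufa5 (-0.75) are accessory subunits. Ndufa3 had 120, 40.7 and 71.4 CPM in EnzR EVs mice and 38.2, 40.6 and 35.3 CPM in EnzR EVs + HDL NPs mice, so that, as in Ndufb11, replicate 2 of the EnzR EVs group lay close to the other group. Over the 35 genes of complex I the median log2 fold change was -0.11, with 24 lower and 11 higher.

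In complex II, the membrane anchor Sdhc was among the 16 and the flavoprotein Sdha was not. Sdhc, on chr1:171129157-171150640, had 88.3, 43.0 and 70.2 CPM in EnzR EVs mice and 36.1, 32.9 and 39.3 CPM in EnzR EVs + HDL NPs mice, with a log2 fold change of -0.88 ± 0.30 and an unadjusted p of 0.0147 by edgeR. Sdha, which oxidizes succinate, had 113 ± 18.6 and 123 ± 3.46 CPM, a log2 fold change of 0.12 ± 0.16, and was among the steadiest members, at 93.3 to 130 CPM over the 9 libraries. Without the 3 libraries over 10% Rn45s, Sdha stood at 0.13 in EnzR EVs and at 0.05 in EnzR EVs + HDL NPs, each against PBS. The order of these 2 groups thus turned in that fit. Sdhb had 74.2 ± 10.9 and 58.2 ± 7.33 CPM without overlap, and Sdhd, the other anchor, 82.3 ± 14.7 and 79.9 ± 10.8 CPM with overlap.

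In complex III, Uqcrc1, a core protein on chr9:108936648-108949641, had 95.5, 112 and 122 CPM in EnzR EVs mice and 85.1, 87.3 and 79.5 CPM with HDL NPs added. Its log2 fold change was -0.39 ± 0.16, and PBS mice, at 120, 99.5 and 98.2 CPM, lay with the EnzR EVs mice. Its partner core protein Uqcrc2 had 19.8, 95.9 and 59.9 CPM in EnzR EVs mice and 92.1, 86.7 and 62.1 CPM in EnzR EVs + HDL NPs mice, which overlap. The Rieske iron-sulfur protein Uqcrfs1 had 58.4 ± 8.16 and 48.9 ± 4.64 CPM.

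In complex IV, Cox4i1, on chr8:120668225-120674209, had 272, 202 and 268 CPM in EnzR EVs mice and 158, 172 and 158 CPM in EnzR EVs + HDL NPs mice, with a log2 fold change of -0.60 ± 0.23. Cox5a, which lies beside it in the complex, had 89.6 ± 13.4 and 56.5 ± 4.09 CPM, and Cox6a1 76.4 ± 5.64 and 56.2 ± 5.81 CPM. In both genes all mice of one group lay apart from those of the other. The 5 highest log2 fold changes of the comparison were those of Cox7b (0.72), Cox7a1 (0.69), Atp5k (0.64), Atp5o (0.49) and Ndufb4 (0.49), and in all 5 the mice overlapped. In Cox7a1 and Ndufb4, which both had 0 counts in EnzR EVs replicate 1, a single pair of mice broke the order. Leaving out the 3 libraries over 10% Rn45s, Cox7a1 stood at 0.10 and the other 4 turned negative, at -0.41 for Cox7b, -0.36 for Atp5k, -0.31 for Atp5o and -0.0733 for Ndufb4. Cox7b had 1.10, 42.9 and 8.51 CPM in EnzR EVs mice and 45.8, 36.1 and 14.8 CPM in EnzR EVs + HDL NPs mice.

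In complex V, the alpha and beta subunits, which alternate in the catalytic head, are given side by side. Atp5a1, for alpha, had 558, 407 and 443 CPM in EnzR EVs mice and 352, 309 and 275 CPM in EnzR EVs + HDL NPs mice, a log2 fold change of -0.59 ± 0.22. Atp5b, for beta, had 203, 467 and 366 CPM and 403, 365 and 288 CPM, a log2 fold change of 0.02 ± 0.27 with complete overlap. Atp5c1, for the gamma shaft, had 107 ± 44.7 and 129 ± 29.2 CPM, and Atp5o, for the stalk protein that confers oligomycin sensitivity, 30.7 ± 24.7 and 45.7 ± 11.3 CPM. Atp5h, of the peripheral stalk, had 65.2 ± 20.2 and 40.4 ± 3.29 CPM without overlap, and 40.3% of its windows are shared with a pseudogene. Without the 3 libraries over 10% Rn45s, the log2 fold changes were -0.39 for Atp5a1, -0.41 for Atp5b and -0.27 for Atp5h. In that fit Atp5c1 turned from 0.26 to -0.24 and Atp5o from 0.49 to -0.31. The difference between the alpha and beta genes was not tested.

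**Figure D3:**
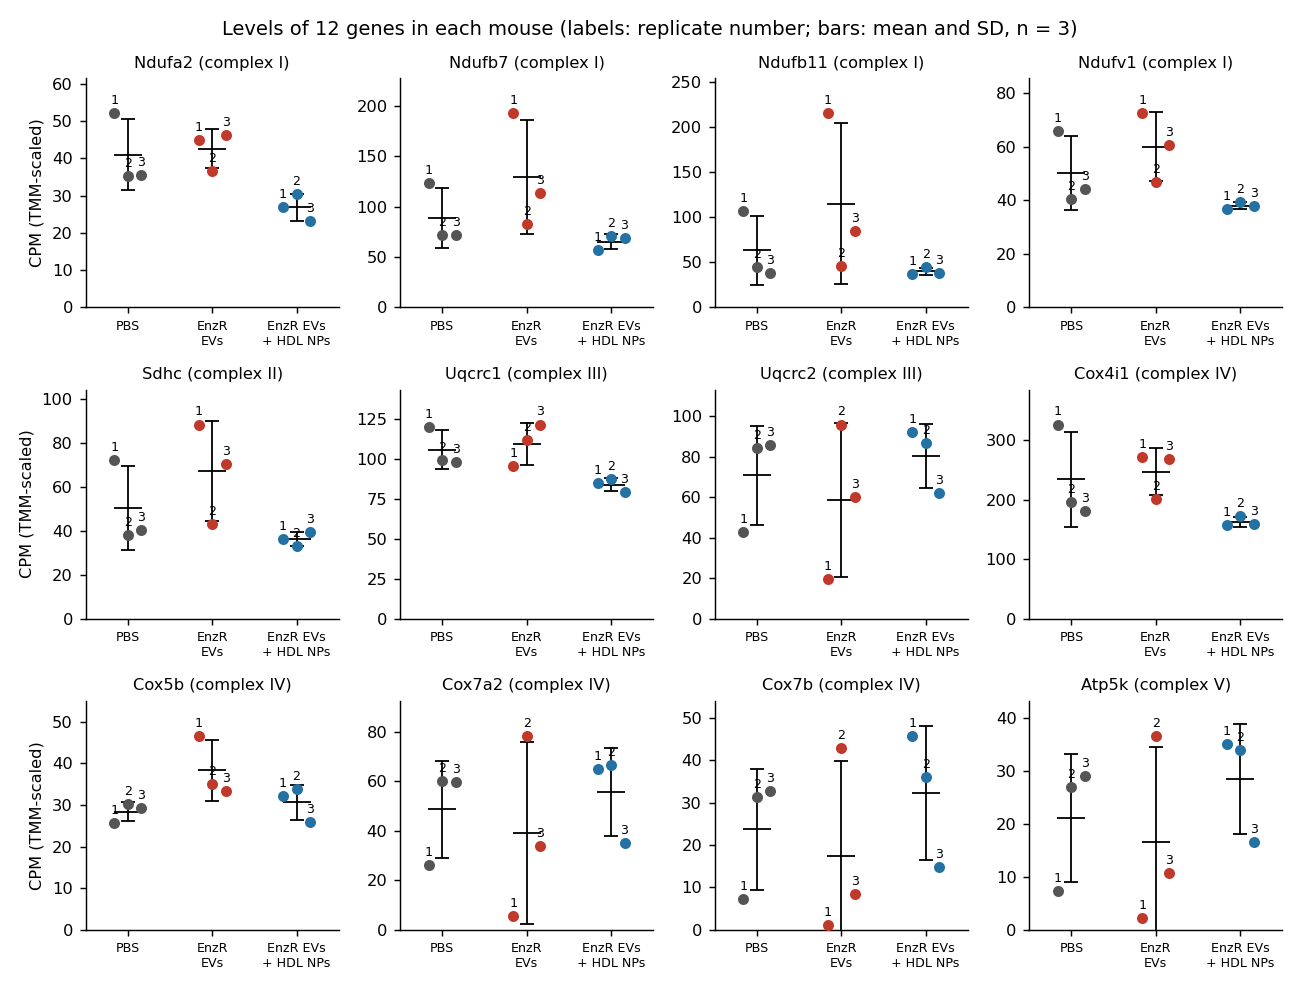
Levels of 12 genes in CPM scaled by the TMM factors, 1 point per mouse labelled by replicate number, with the mean and SD of 3 mice (a bar that would pass below 0 ends at the axis). The EnzR EVs + HDL NPs mice lie below the other 2 groups in Ndufa2, Ndufb7, Ndufv1, Uqcrc1 and Cox4i1, and replicate 1 of PBS and of EnzR EVs is the lowest of its group in Uqcrc2, Cox7a2, Cox7b and Atp5k.

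The count of 16 also depends on single libraries. It was 9 of 78 without EnzR EVs replicate 1, with 1 gene higher, where 2.67% of all genes were lower and 2.52% higher. It was 10 of 78 without EnzR EVs replicate 3 (4.51% of all genes lower) and 6 of 78 without EnzR EVs + HDL NPs replicate 3 (4.13% of all genes lower), with 0 higher in both. Without EnzR EVs replicate 2 it was 21 of 79, with 7 genes higher, where 15.1% of all genes were lower and 14.2% higher. Without the 2 libraries with most Rn45s (PBS replicate 1 and EnzR EVs replicate 1) it was 25 of 78, with 1 higher (6.02% and 4.78% of all genes). Without the 3 libraries over 10% Rn45s, 72 of 78 genes were lower, and the median was -0.29 beside 0.0055 for all genes. That fit holds EnzR EVs replicate 2 alone in its group, with the group's highest sum over the 81 genes (4515 CPM). It keeps EnzR EVs + HDL NPs replicate 3, with the lowest sum of all libraries (3148 CPM). The median of -0.11 was -0.04 without EnzR EVs + HDL NPs replicate 3 (42 of 78 genes lower), -0.07 without EnzR EVs replicate 2, -0.18 and -0.20 without EnzR EVs + HDL NPs replicates 2 and 1, and -0.22 without EnzR EVs replicate 1. The 16 genes were all lower in the fit without the 3 libraries too, 3 of them at an unadjusted p under 0.05 by edgeR, with log2 fold changes from -0.45 to -0.10 and a median of -0.32. Ndufb11 stood at -0.19 there, Ndufa3 at -0.10, Ndufb7 at -0.34, Sdhc at -0.26, Ndufs7 at -0.32 and Ndufa5 at -0.36. Scaling by library size alone gave 3 (2.33% of all genes lower), and moved the median of all genes to 0.24 and that of the 77 genes to 0.09, so that 45 were higher, while their distance from the median of all genes was -0.15 (-0.14 with TMM). Library quality weights gave 653 calls among the 12553 genes tested. Of the 77 genes 10 were called, all lower: Cox4i1, Cox5a, Ndufa2, Ndufa3, Ndufb7, Ndufb11, Ndufc2, Ndufv1, Sdhc and Uqcrc1. At an unadjusted p under 0.05 by limma voom with these weights, 28 of the 77 were lower and 5 higher. Of all genes 15.5% were lower and 15.5% higher at that p. Markers of cell types moved in the same comparison. All 5 early granulocyte genes (Mpo, Elane, Prtn3, Ctsg, Ms4a3) were lower, 2 of them at an unadjusted p under 0.05 by edgeR, with sums of 2020 to 2175 CPM in EnzR EVs mice and 857 to 1763 CPM in EnzR EVs + HDL NPs mice. All 10 late granulocyte genes tested were higher, 0 of them at that p, with sums of 31321 to 127460 and 85989 to 150367 CPM, and 13 of 18 proliferation genes were lower, 5 of them at that p. The T and NK cell genes had sums of 77.9, 45.1 and 50.4 CPM in EnzR EVs mice and 43.9, 25.5 and 27.7 CPM in EnzR EVs + HDL NPs mice, without overlap, and of the 4 tested 1 was lower, at that p, and 3 were higher. Of 7 monocyte genes 6 were higher, 0 of them at that p. The part of these cells and of Rn45s in the values of the respiratory chain genes was not tested.

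EnzR EVs + HDL NPs mice were also compared with PBS mice, and the PBS group is shared with the first comparison and the EnzR EVs + HDL NPs group with the second. Of 77 genes, 0 passed the adjusted threshold by edgeR (0% of all genes), DESeq2 or limma voom, and 3 were lower and 0 higher at an unadjusted p under 0.05, where 1.12% of all genes were lower and 1.02% higher. In 11 genes all EnzR EVs + HDL NPs mice lay below all PBS mice and in 1, Cox7c, above, where 6.21% of all genes lay below and 6.96% above. The median log2 fold change was -0.12 beside -0.0072 for all genes, and 54 genes were lower and 23 higher. The 3 genes were Ndufa2, at -0.60 ± 0.20 (unadjusted p of 0.0137 by edgeR), Cox4i1, at -0.52 ± 0.23 (0.0450), and Atp5e, at -0.47 ± 0.21 (0.0469), each with an adjusted p of 1.00. Atp5e, which encodes the epsilon subunit of the central stalk, had 84.3, 58.1 and 55.7 CPM in PBS mice and 52.6, 53.2 and 37.0 CPM in EnzR EVs + HDL NPs mice, and the groups' nearest mice were 55.7 and 53.2 CPM. For Cox4i1 PBS mice had 327, 196 and 181 CPM, all above the 158 to 172 CPM of EnzR EVs + HDL NPs mice. Without the 3 libraries over 10% Rn45s, Cox4i1 stood at -0.21 and Atp5e at -0.26.

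The 5 lowest log2 fold changes were those of Ndufb11 (-0.65), Ndufa2, Ndufc2 (-0.55), Atp5g1 (-0.55) and Ndufa3 (-0.53), and the 5 highest those of Cox7c (0.46), Cox7b (0.42), Atp5k (0.41), Cox6b2 (0.32) and Cox7a2 (0.18). Cox7c had 1.58, 1.67 and 1.37 CPM in PBS mice and 1.91, 2.09 and 2.38 CPM in EnzR EVs + HDL NPs mice, which rest on 9 to 35 counts per library. The count of 3 at an unadjusted p under 0.05 by edgeR was 0 without PBS replicate 1 or EnzR EVs + HDL NPs replicate 3, 1 without EnzR EVs + HDL NPs replicate 1, EnzR EVs replicate 3 or the 3 libraries over 10% Rn45s, 5 without PBS replicate 3 and 7 without EnzR EVs replicate 1, where from 0.561% to 2.57% of all genes were lower. Without PBS replicate 1, Ndufa3 stood at 0.009 and Cox7a2 at -0.11. The median of -0.12 was -0.05 without EnzR EVs + HDL NPs replicate 3 (43 of 78 genes lower), -0.22 without EnzR EVs + HDL NPs replicate 2, -0.06 with an offset for the GC content of transcripts, an alternative chosen after the data were seen, and -0.06 with scaling by library size alone. Without the 3 libraries over 10% Rn45s, 56 of 78 genes were lower and the median was -0.10 beside -0.0010 for all genes. In that fit Ndufb11 stood at -0.0535, Ndufa2 at -0.40, Ndufc2 at -0.063, Atp5g1 at -0.39 and Ndufa3 at 0.0108. Of the 5 highest, Cox7c stood at 0.48 and Cox6b2 at 0.27, while Cox7b was at 0.0184, Atp5k at 0.0306 and Cox7a2 at -0.11. By complex the medians were -0.16 in complex I, -0.19 in complex II, -0.20 in complex III, -0.02 in complex IV and -0.08 in complex V. Uqcrfs1, Uqcrh and Uqcrc1 of complex III lay below PBS in all mice. Early granulocyte genes were lower in 5 of 5 in this comparison too, 1 of them at an unadjusted p under 0.05, with sums of 1520 to 1988 CPM in PBS mice, and marrow macrophage genes in 8 of 8, 3 of them at that p, with sums of 686 to 1212 CPM in PBS mice and 561 to 750.0 CPM in EnzR EVs + HDL NPs mice. Of 10 erythroid genes tested 9 were lower, 1 of them at that p, with sums of 203, 161 and 188 CPM in PBS mice and 141, 158 and 102 CPM in EnzR EVs + HDL NPs mice, which did not overlap. Late granulocyte genes were higher in 7 of 10 and monocyte genes in 3 of 7, 0 of either at that p. The part of these markers in the values above was not tested.

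Some members varied widely between mice of 1 group. Across the 9 libraries the ratio of the highest to the lowest CPM had a median of 2.02 in the 75 tested genes with counts in every library, with 34 genes under 2 and 8 over 4. The median SD of log2 CPM was 0.34 for the 77 genes and 0.38 for all genes tested, and 5 of the 77 passed 1. To describe the pattern, the library with the most Rn45s in each group was set against the other 2 of its group: PBS replicate 1, EnzR EVs replicate 1 and EnzR EVs + HDL NPs replicate 3. These 3 contrasts use no library in common.

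Cox7b, on chrX:106015700-106022450, was lowest in the high Rn45s library of every group. It had 7.22, 31.3 and 32.7 CPM in PBS mice, 1.10 (2 counts), 42.9 and 8.51 CPM in EnzR EVs mice, and 45.8, 36.1 and 14.8 CPM in EnzR EVs + HDL NPs mice. On the log2 CPM scale, with a prior count of 2, these contrasts were -2.12, -3.95 and -1.45. Atp5k, which encodes subunit e, where ATP synthase dimers form, had contrasts of -1.93, -3.09 and -1.06, and Cox7a2 of -1.20, -3.20 and -0.91. Ndufb4 had 0 counts in EnzR EVs replicate 1, which allows up to 1.65 CPM, and 4.22 to 8.57 CPM elsewhere. Uqcrc2, Atp5o, Atp5j2 and Cox8a were lower in all 3 contrasts too. In all, 26 of the 77 genes were lower in all 3 (33.8%, beside 23.7% of all genes) and 5 were higher in all 3 (6.49%, beside 19.5%), namely Cox7c, Atp5l, Ndufs7, Sdhc and Ndufb7. The sign was the same in all 3 for 40.3% of the 77 genes and for 43.2% of all genes.

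At the other end, Ndufb11, on chrX:20615326-20617619, was highest in the high Rn45s library of 2 groups. It had 107, 44.6 and 38.7 CPM in PBS mice and 216, 45.7 and 85.1 CPM in EnzR EVs mice, contrasts of 1.37 and 1.79, and 38.3 CPM in EnzR EVs + HDL NPs replicate 3, a contrast of -0.09. Ndufa3 behaved in the same way, with contrasts of 1.25, 1.15 and -0.16. Across the 77 genes the PBS and EnzR EVs contrasts had a correlation of 0.73, the PBS and EnzR EVs + HDL NPs contrasts of 0.70, and the EnzR EVs and EnzR EVs + HDL NPs contrasts of 0.61, beside 0.47, 0.17 and 0.19 over all 12553 genes. These are correlations over genes of the same libraries, which are not independent replicates, and each contrast compares a library of more Rn45s with 2 of less. In each group that library is also the shallowest. The set of all genes was not matched to the 77 genes in expression level, and the difference between their correlations was not tested. The contrasts followed the GC content of transcripts weakly, with correlations of 0.14, 0.15 and 0.11 over the 77 genes, beside 0.15, 0.21 and 0.04 over the 12409 genes with an annotation. Those with the log length of transcripts were -0.03, 0.12 and 0.15 over the 77 genes, beside -0.05, 0.08 and 0.21.

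**Figure D4:**
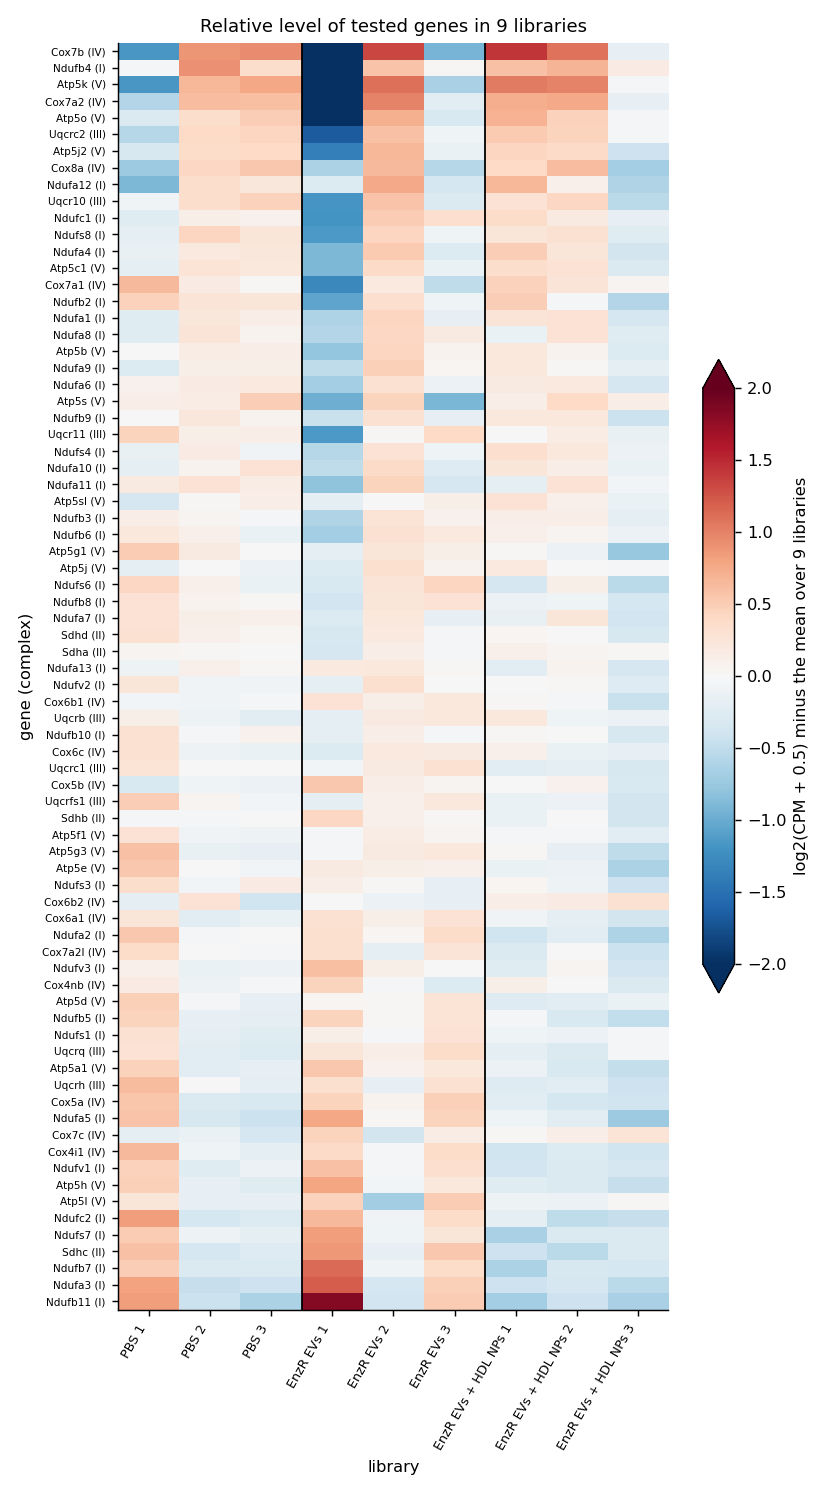
Levels of tested genes in the 9 libraries, 1 gene left out, as log2(CPM + 0.5) minus the mean over libraries, with genes ordered by their mean within-group contrast and colours cut off at 2. EnzR EVs replicate 1 shows the deepest blue at the top (Cox7b, Ndufb4, Atp5k, Cox7a2) and the deepest red at the bottom (Ndufb11), and PBS replicate 1 resembles it more weakly.

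The first 150 coding bases of Cox7b and of Ndufb11 are given because these genes stand at the ends of that order. They are from GENCODE M21 on GRCm38, 5′ to 3′, with the start codon in capitals, at chrX:106015831-106019688 on the plus strand with the introns between, and at chrX:20617111-20617260 on the minus strand in 1 exon.
Cox7b: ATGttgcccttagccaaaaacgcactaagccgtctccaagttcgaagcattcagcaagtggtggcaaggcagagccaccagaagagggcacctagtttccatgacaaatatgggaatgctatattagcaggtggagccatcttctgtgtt
Ndufb11: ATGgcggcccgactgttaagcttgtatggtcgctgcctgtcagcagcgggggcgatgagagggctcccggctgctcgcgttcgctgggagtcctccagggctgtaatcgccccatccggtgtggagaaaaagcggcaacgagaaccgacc
The Cox7b stretch holds 48.7% G and C and the Ndufb11 stretch 64.0%, and over the coding sequences, of 240 and 453 bases, these were 47.5% and 55.4%. No 75-base window of Cox7b is in another gene, and 2.52% of those of Ndufb11 are in 1 pseudogene.

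**Figure D5:**
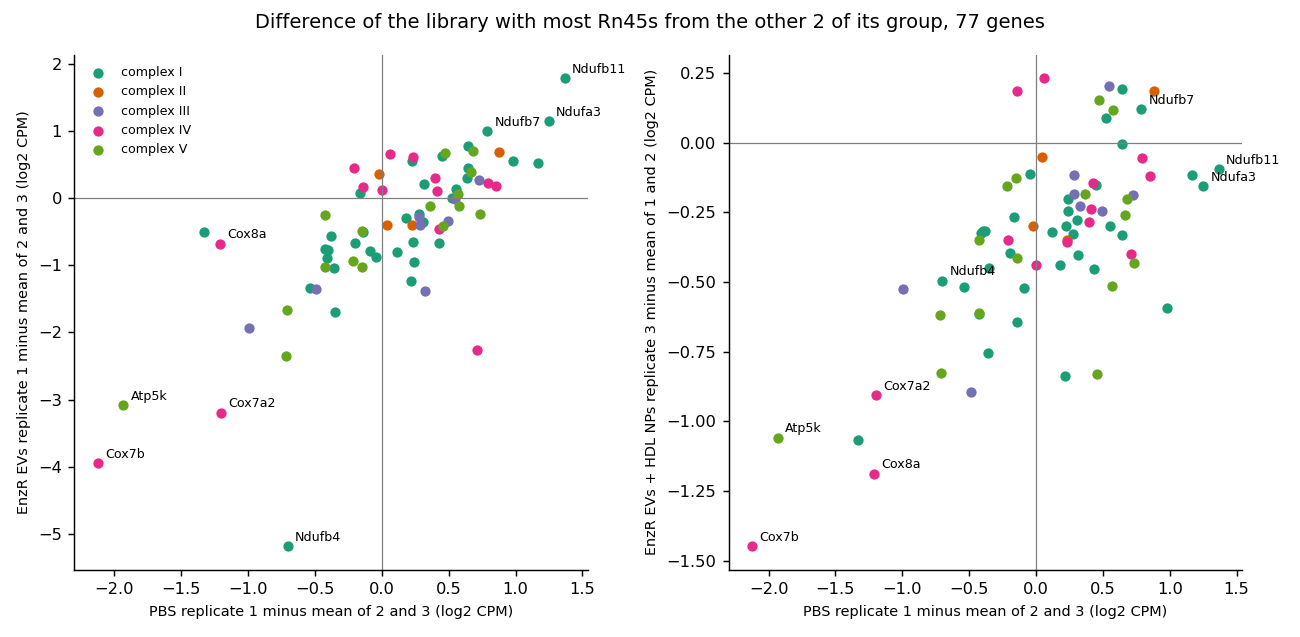
Each point is 1 of 77 genes, coloured by complex. The x axis is log2 CPM of PBS replicate 1 minus the mean of PBS replicates 2 and 3, and the y axis the same kind of difference for EnzR EVs replicate 1 (left) and EnzR EVs + HDL NPs replicate 3 (right). Cox7b is far below 0 in both panels (-2.12 against -3.95 and -1.45), Ndufb4, with 0 counts in EnzR EVs replicate 1, is lowest on the left, and Ndufb11 at the high end of the left panel (1.37 against 1.79).

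Genes that work with the respiratory chain were read from lists in the same fits. Of 11 partner subunits and electron carriers, among them Cyc1 of complex III, the carrier Cycs and Ndufa4, which is also counted above, 0 had an unadjusted p under 0.05 by edgeR in EnzR EVs against PBS or in EnzR EVs + HDL NPs against PBS, and 1 was lower in EnzR EVs + HDL NPs against EnzR EVs. Cyc1 had 30.5, 33.6 and 33.8 CPM in PBS mice, 24.1, 37.7 and 32.9 in EnzR EVs mice and 31.5, 28.3 and 27.3 in EnzR EVs + HDL NPs mice, which overlap. Of 48 assembly factors listed, 28 were in the counts and 27 tested. In EnzR EVs + HDL NPs against EnzR EVs 21 of the 27 were lower and 6 higher, 3 and 1 of them at an unadjusted p under 0.05, with a median of -0.17, and 18 of the 27 were higher in EnzR EVs against PBS, 0 at that p. In EnzR EVs + HDL NPs against EnzR EVs, 6.97% of all genes were lower and 3.58% higher at that p, beside 11.1% of the assembly factors and 9.09% of the partners lower. Of 14 genes of the tricarboxylic acid cycle, 8 were lower in EnzR EVs + HDL NPs against EnzR EVs, 2 of them (14.3%) at that p, with a median of -0.01. No gene of these lists passed the adjusted threshold.

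Among regulators of mitochondrial biogenesis, 13 were tested. In EnzR EVs + HDL NPs against EnzR EVs 7 were lower, 1 of them at an unadjusted p under 0.05 by edgeR, and 6 higher. Nrf1, a factor for many respiratory genes, lay between 38.7 and 58.8 CPM in the 9 libraries, and Tfam, which packages and transcribes mitochondrial DNA, had at least 14.3 CPM in each. Gabpa lay between 80.8 and 176 CPM, with the highest value in EnzR EVs replicate 1, and Yy1 between 109 and 210 CPM with the highest there too. Ppargc1a, the coactivator of biogenesis in muscle and brown fat, had at most 3 counts in any library, and Ppargc1b lay between 0.417 and 2.29 CPM.

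Other housekeeping groups were read in EnzR EVs + HDL NPs against EnzR EVs. At an unadjusted p under 0.05 by edgeR, 10 of 74 mitochondrial ribosomal protein genes were lower (13.5%), 10 of 38 proteasome subunit genes (26.3%) and 7 of 90 cytosolic ribosomal protein genes (7.78%), and 0 of each were higher, beside the 6.97% for all genes and 20.8% for the respiratory chain genes. Their medians were -0.12, -0.03 and 0.10. Differences between these groups of genes were not tested.

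Promoters of the respiratory chain genes were searched for 3 motifs of factors known for such genes, as exact letters on both strands: GCATGCGC for NRF1, CCGGAAGT for GABP and AAGATGGC for YY1, none of which overlaps another in the promoter below. RefSeq promoters on GRCm38.p6, from 250 bases before to 50 after the start, were found for 67 of the 81 genes. The NRF1 letters were in 14.9% of the 67, beside 3.05% of all 27025 genes of the table and 5.94% of the 8932 with a test here. The YY1 letters were in 16.4%, beside 3.19% and 5.21%, and the GABP letters in 7.46%, beside 4.31% and 8.99%. Any of the 3 was in 37.3%, beside 9.91% and 18.6%. Uqcr11, a small subunit of complex III, was the only one of the 67 with 2 different motifs, and its promoter is shown for that, at chr10:80406772-80407071 on the minus strand, with the motifs in capitals (GABP first, then NRF1).
Uqcr11: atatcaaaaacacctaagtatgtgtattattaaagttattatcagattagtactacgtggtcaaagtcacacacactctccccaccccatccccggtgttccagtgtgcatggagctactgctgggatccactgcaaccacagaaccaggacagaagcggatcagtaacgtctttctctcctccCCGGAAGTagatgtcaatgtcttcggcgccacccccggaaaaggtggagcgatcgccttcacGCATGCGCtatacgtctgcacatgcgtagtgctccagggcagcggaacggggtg
Uqcr11 had 24.1, 19.1 and 19.3 CPM in PBS mice, 7.68, 17.9 and 23.2 in EnzR EVs mice and 17.7, 19.5 and 15.9 in EnzR EVs + HDL NPs mice, so the groups overlapped. A match of letters is no measure of binding, and these data hold none.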

How the data were processed

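Stranded total RNA was sequenced (single-end reads of 75 bases) in 9 libraries of CD11b+ marrow cells. The deposited values are counts per gene without normalization, for which the authors trimmed reads with cutadapt 1.13, removed poor-quality and ribosomal reads, used STAR on mm10 and ran HTSeq 0.6.1p1 with the UCSC annotation. Tests used edgeR 4.0.16 under R 4.3.3, with TMM scaling, the default filter (12553 genes kept), a robust quasi-likelihood fit to all 9 libraries and Benjamini-Hochberg adjustment at 0.05. Levels are CPM scaled by the TMM factors. Two-sided exact permutation tests over mice were added for single genes. DESeq2 1.42.0 and limma 3.58.1 were alternatives. The default edgeR, DESeq2 and limma voom fits were run on simulated counts for EnzR EVs against PBS. The other settings and comparisons were not. Members and lists were chosen with earlier results of these data known.

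Genes named are the 5 highest and 5 lowest log2 fold changes of each comparison, every gene past the threshold, the smallest p, a list of core subunits, the paralog sets, the genes left out by the filter and the levels per kb at both ends. The 16, 24 and 11 genes given as counts and the added examples among them were named after their values were seen. Nothing in the labels says whether mice were treated or prepared on separate days. Each mouse gave a single library, so the spread behind the p-values mixes differences of mice with those of library quality. In the edgeR fit the 3 groups share the estimate of that spread. Same-numbered mice of PBS and EnzR EVs deviated together, with correlations of 0.47, 0.49 and 0.13 over genes, but so did PBS replicate 3 with EnzR EVs replicate 2 (0.43) and PBS replicate 2 with EnzR EVs replicate 3 (0.16). The remaining differently numbered pairs of these groups had correlations from -0.53 to -0.17. Same-numbered mice of the other 2 comparisons did not deviate together in every pair (-0.18 to 0.29). The main fit has no replicate block, and a fit with the block was an alternative. A floor of 3 counts is 0.160 to 1.65 CPM and covers counting error only. Transcript lengths and sequences are from the principal transcripts of GENCODE M21, gene coordinates and promoters from RefSeq on GRCm38.p6. Values of 1 gene of complex I are not reported here.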

Additional observations from a re-analysis of the deposited data

How the results depend on the processing

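Depth limits the low genes most, since EnzR EVs replicate 1 held 2575776 counts. Of 731 results of single genes under the alternatives, 705 kept their direction and their side of the threshold. These genes were picked by log2 fold change or smallest p in the main fit, where 0 passed the threshold. The alternatives reuse most of the same libraries, so that number is no independent support. The cause of the changes below was not tested. The number of all genes past the threshold in EnzR EVs against PBS rose from 0 to 11 with DESeq2, 1 with no filter, 1 with the replicate block, 5 without the 2 libraries with most Rn45s, 10 without the 3 libraries over 10% Rn45s and 1990 with library quality weights, and it was 0 to 2 when each replicate was left out in turn. In EnzR EVs + HDL NPs against PBS it was 8 with DESeq2 and 10 with quality weights, and 0 whichever replicate was left out. In EnzR EVs + HDL NPs against EnzR EVs it was 1 with DESeq2, with the 6 libraries only, and without the 2 or the 3 libraries with most Rn45s, 653 with quality weights, and 0 to 1 with each replicate left out. Respiratory chain genes past the threshold numbered 14 for the vesicles against PBS and 10 for the nanoparticles added to vesicles with quality weights, and 0 in all other settings. Their medians ranged from -0.14 to 0.18, from -0.22 to -0.05 and from -0.29 to 0.09 over all settings, and with each replicate left out from -0.06 to 0.08, from -0.22 to -0.05 and from -0.22 to -0.04. With the replicate block, 0 of them passed in any comparison and the medians were 0.02, -0.13 and -0.11, and the block changed no other call.

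Without the 3 libraries over 10% Rn45s, the log2 fold changes of EnzR EVs against PBS turned to 0.17 for Cox7a1, 0.13 for Atp5s, 0.0949 for Ndufb2 and 0.17 for Uqcr10. Those of EnzR EVs + HDL NPs against EnzR EVs turned to -0.0733 for Ndufb4, -0.31 for Atp5o, -0.36 for Atp5k and -0.41 for Cox7b, and those of EnzR EVs + HDL NPs against PBS to 0.0108 for Ndufa3 and -0.11 for Cox7a2. Without the 2 libraries with most Rn45s these were 0.0109 and -0.11. With each replicate left out they ranged from -0.75 to 0.009 for Ndufa3 and from -0.11 to 0.43 for Cox7a2, and turned without PBS replicate 1. With quality weights Cox7a2 stood at -0.0842 and Cox7b at -0.0343 in EnzR EVs + HDL NPs against PBS. The added alternatives were chosen after the data were seen.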
